A study of Mus musculus with 6 samples.

Results

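The cells described here were macrophages of uninjured mouse skeletal muscle that carried RNA of Lyve1 or Cd163. They were chosen from counts of unique molecular identifiers (UMIs, tags that mark single captured RNA molecules) in the 2 libraries of uninjured muscle. A droplet barcode, which stands for 1 captured cell, was kept with at least 500 UMIs, 200 genes and at most 10% mitochondrial UMIs. It was a member with at least 5 UMIs of C1qa, C1qb and C1qc together and at least 2 UMIs of Lyve1 and Cd163 together. Barcodes with over 1 UMI of the endothelial gene Pecam1 or any UMI of the stromal gene Pdgfra were left out. The rule gave 798 members among 11758 kept barcodes at ZT4 and 599 among 12397 at ZT16. These 1397 members are part of 24155 kept barcodes of uninjured muscle and of 64032 in the whole series.

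Tissue macrophages clear dead cells, debris and proteins and take part in the repair of muscle. Many tissues hold resident macrophages that lie along vessels and in connective tissue and that carry LYVE1, a receptor for hyaluronan, and CD163, a receptor for haemoglobin bound to haptoglobin. They commonly also carry FOLR2, a folate receptor, and TIMD4, a receptor for phosphatidylserine on dying cells, and have little MHC class II and little of CCR2, the chemokine receptor through which monocytes enter tissues. C1q, the first component of the classical complement pathway, is made mainly by macrophages.

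All mice were wild type, and strain, age and sex are not stated in the labels. Mononucleated cells came from the tibialis anterior muscles of both hindlimbs, were sorted without propidium iodide (dead) cells, and were captured with a droplet kit that reads the 3′ ends of RNA. The groups were uninjured muscle (day 0), and muscle at day 1 and day 3 after injury with cardiotoxin, a membrane-damaging venom toxin. Each group was taken at ZT4 and at ZT16. Zeitgeber time (ZT) counts hours from lights on, so ZT4 lies in the light phase and ZT16 in the dark phase of a usual cycle. Each of the 6 groups was 1 library, and the labels do not say how many mice each held. No difference between libraries therefore has a replicate check, no p-value is given, and time of day cannot be told apart from other differences between 2 libraries. The 95% limits cover counting error only.

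The 2 uninjured libraries were similar in size, with 76575993 and 82114677 UMIs in all and 10.8% and 11.7% of barcodes over the mitochondrial limit. They shared 44 kept barcode sequences, none of them between members. The members held 5919559 UMIs at ZT4 and 4844767 at ZT16. Their median was 7102 UMIs and 2448 genes a cell at ZT4, and 7808 UMIs and 2612 genes at ZT16. Levels below are UMIs summed over the members of 1 library and scaled to 1000000 UMIs (CPM).

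Members made up 6.79% of kept barcodes at ZT4 (exact binomial 95% limits 6.34% and 7.26%) and 4.83% at ZT16 (4.46% and 5.22%). The share was lower at ZT16, with a log2 ratio of -0.49 (95% limits -0.65 and -0.34). When every barcode was thinned to 2000 UMIs before the rule was applied, the log2 ratio was -0.15 (95% limits -0.32 and 0.03). Among barcodes with C1q and without the endothelial and stromal genes, members were 72.0% (798 of 1109) at ZT4 and 77.3% (599 of 775) at ZT16. That log2 ratio was 0.10 (95% limits -0.05 and 0.26). Among barcodes with Ptprc, the general leukocyte gene, they were 43.0% and 49.1%, a log2 ratio of 0.19 (0.02 and 0.37). The lower share at ZT16 was thus seen against all kept barcodes and not against C1q or Ptprc barcodes. Shares of captured cells do not give the number of cells in the muscle.

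Most members had both genes of the rule. Lyve1 and Cd163 were both detected in 62.0% of members at ZT4 and 63.9% at ZT16. Lyve1 alone was detected in 11.5% and 15.7%, and Cd163 alone in 26.4% and 20.4%. The lymphatic endothelium also carries Lyve1. The 7 other lymphatic genes measured summed to 7.10 CPM in the members at ZT4 and 10.1 CPM at ZT16. Of them, 3 and 2 were at 0. Their part in the Lyve1 level was not tested.

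Genes that the rule did not use gave the label of resident macrophages a check. A Timd4 UMI was present in 53.8% of members at ZT4 and 48.9% at ZT16. Stromal barcodes, which should lack Timd4, had it in 0.239% and 0.206%, at median depths of 9914 and 11352 UMIs. Endothelial barcodes had it in 0.446% and 0% (0 of 1711, with an exact upper limit of 0.215%), at median depths of 3876 and 4429 UMIs. Both of these sets were chosen to have no UMI of the leukocyte gene Ptprc. Thinned to 2000 UMIs, members had Timd4 in 25.5% and 25.2%, with 26 and 28 shallower cells left out. A Folr2 UMI was present in 90.6% and 86.3%, against 1.37% and 0.949% of stromal barcodes. The macrophage genes Csf1r, the receptor for macrophage growth factor, and Mrc1, the mannose receptor CD206, were present in 98.6% and 99.0%, and in 99.1% and 99.2%, of members. Barcodes with C1q but at most 1 UMI of Lyve1 and Cd163 together also carried these genes. They had Timd4 in 12.9% and 3.98%, Folr2 in 46.9% and 29.5% and Mrc1 in 86.8% and 84.7%. The shares of Timd4 and Folr2 in the members went with the label of resident macrophages. Other values went against it. A UMI of H2-Aa, a chain of MHC class II, was present in 78.9% and 71.0% of members, with medians of 19 and 8 UMIs, and 18.8% and 25.4% of members also had a UMI of Ccr2, against 0.649% and 0.206% of stromal barcodes.

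Barcodes on both sides of the limit on Lyve1 and Cd163 carried Timd4 and Folr2. Of barcodes with C1q, 100 at ZT4 and 53 at ZT16 had a sum of 1 and lay just outside, and 83 and 34 had a sum of 2 and lay just inside. Timd4 was detected in 23.0% and 7.55% of those just outside and in 27.7% and 14.7% of those just inside. Their Folr2 levels were 519.9 and 174 CPM just outside and 577 and 205 CPM just inside. Members with a sum of at least 4 (634 and 538 cells) had 1485 and 1372 CPM of Folr2. The limit on C1q had few neighbours, with 11 members of 5 to 9 C1q UMIs in each library and 10 and 18 barcodes with 1 to 4. A further 60 and 56 barcodes passed the limit on Lyve1 and Cd163 with no C1q UMI, at median depths of 13248 and 13919.5 UMIs. They had 1.30 and 1.37 CPM of Folr2 and 11645 and 11319 CPM of H2-Aa. The limits on Pecam1 and Pdgfra left out 69 and 58 barcodes, with median depths of 13039 and 12128 UMIs and Timd4 in 55.1% and 55.2%.

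The members carried a large load of macrophage RNA. The 20 genes with the most UMIs included Apoe, an apolipoprotein that macrophages secrete, at 16761 CPM in the ZT4 library and 14226 in the ZT16 library. Lyz2, the macrophage lysozyme, was at 9884 CPM in the ZT4 library and 8848 in the ZT16 library. Pf4, a chemokine made by platelets and by resident macrophages, was at 5925 CPM in the ZT4 library and 5138 in the ZT16 library. These 3 genes were less than 1.5-fold lower at ZT16. UMIs come from 3′ ends and were not corrected for gene or capture differences, so this order is one of UMIs. Selenop, a secreted selenium carrier, was at 5488 CPM in the ZT4 library and 4340.4 in the ZT16 library. C1qa, a subunit of C1q, was at 4576 CPM in the ZT4 library and 5603 in the ZT16 library. Others among the 20 were Cd74 and H2-Aa of MHC class II, the ferritin chains Ftl1 and Fth1, and the immediate early genes Fos and Jun, which respond within minutes to stimulation and to tissue dissociation. Fos was at 4516 CPM in the ZT4 library and 4515 in the ZT16 library, the same level in both libraries.

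The promoters of Timd4 and Pf4 are shown because the members carried these resident macrophage genes although the rule did not use them, and because their windows hold a searched word and no exon bases. Of 14 windows of 13 macrophage genes looked up, 5 held any word, and those of Folr2, Mrc1, Cbr2, Ednrb, Cd209f and Cd209g held none. The sequences are 250 bases before the annotated start, from RefSeq on GRCm38.p6, 5′ to 3′ on the gene's strand. Timd4 lies at chr11:46810800-46844332 on the plus strand of GRCm38 and its window at chr11:46810549-46810798. Pf4 lies at chr5:90772435-90773383 on the plus strand and its window at chr5:90772185-90772434. No base of either window falls in an annotated exon.
Timd4: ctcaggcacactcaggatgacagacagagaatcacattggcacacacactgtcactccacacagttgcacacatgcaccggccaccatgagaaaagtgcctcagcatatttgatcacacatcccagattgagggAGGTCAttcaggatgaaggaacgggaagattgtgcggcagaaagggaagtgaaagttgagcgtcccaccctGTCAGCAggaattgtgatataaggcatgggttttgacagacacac
Pf4: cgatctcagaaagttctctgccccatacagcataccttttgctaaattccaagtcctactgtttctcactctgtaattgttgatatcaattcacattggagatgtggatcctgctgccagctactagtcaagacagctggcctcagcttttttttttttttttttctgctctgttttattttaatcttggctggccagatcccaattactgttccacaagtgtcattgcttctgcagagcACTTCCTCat
Capitals mark short words that were searched on both strands. In Timd4 they are AGGTCA, the core word bound by nuclear receptors, at position -116, and GTCAGCA, the reverse complement of the Maf factor word TGCTGAC, at position -45, counted upstream from the start. In Pf4 they are ACTTCCTC, the reverse complement of GAGGAAGT, a word bound by the macrophage factor PU.1, at position -10. Of 32851 promoter windows of this length, 14.0% held AGGTCA, 3.81% held TGCTGAC and 2.44% held GAGGAAGT on either strand. Of these words, TGCTGAC and the reverse complement of AGGTCA can share bases. Windows were found for 28 of 34 genes looked up. A match describes the letters only.

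Of 18 transcription factor genes of macrophages with at least 50 UMIs, 15 lay within 1.5-fold between the libraries. Maf, which is known to drive the resident programme, was at 1460.1 CPM in the ZT4 library and 1362 in the ZT16 library. Spi1, which encodes PU.1, was at 378 and 339 CPM. Spic, a factor of haem-handling macrophages, was at 22.3 and 12.8 CPM and Pparg, a lipid-sensing factor, at 8.45 and 3.72 CPM, both lower at ZT16. Nr1h3, which encodes the sterol sensor LXR alpha, was at 4.39 and 9.08 CPM and was the 1 higher. Vsig4, a complement receptor of liver and serous cavity macrophages, had 62 and 79 UMIs and was in 2.76% and 4.17% of members. Marco and Cd5l, further genes of macrophages in other organs, had 2 and 0 UMIs and 0 and 1 UMI, at or under the floor of 3 UMIs.

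Beside the other barcodes with C1q (311 at ZT4 and 176 at ZT16, chosen by the same limits but with at most 1 UMI of Lyve1 and Cd163 together), the members had more RNA of resident and scavenger genes and less of MHC class II genes, by the counts below. The rule itself divided these cells, so the values are a description and no support for it. Of 7018 genes with at least 200 UMIs, 710 (10.1%) were at least 1.5-fold higher in the members in both libraries and 199 (2.84%) at least 1.5-fold lower. The median gene was itself higher, and with each library centred on its median gene the counts were 440 and 354.

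Lectins of the Cd209 cluster were among the genes with the largest ratios. Values are at ZT4 and ZT16, with the other C1q barcodes second. Cd209f, a lectin of the DC-SIGN family, was at 335 and 241 CPM in the members against 37.1 and 9.62 CPM. Cd209g was at 117 and 128 CPM in the members against 15.1 and 4.44 CPM. Fcna, a ficolin that starts the lectin pathway of complement, was at 245 and 273 CPM in the members against 36.6 and 11.8 CPM. Each was many times higher in the members of both libraries. Ednrb, a receptor for endothelins, was at 433 and 401 CPM in the members against 54.5 and 19.2 CPM. Hrh1, the histamine H1 receptor, was at 31.9 and 34.7 CPM in the members against 3.66 and 2.22 CPM. Cd209b was at 31.1 and 28.5 CPM in the members against 4.12 and 2.96 CPM, and here the other barcodes had only 9 and 4 UMIs. Timd4 was at 165 and 159 CPM in the members against 27.9 and 5.92 CPM, and Folr2 at 1349.8 and 1272 CPM in the members against 271 and 90.3 CPM. The 2 genes thus differed by log2 values of 2.55 and 4.66 for Timd4 and 2.32 and 3.81 for Folr2 at ZT4 and ZT16.

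Of the 26 resident macrophage genes with at least 50 UMIs, 25 were at least 1.5-fold higher in the members in both libraries, where 10.3% of all genes with at least 50 UMIs were higher and 3.95% lower. The median log2 value of the list was 1.61 at ZT4 and 2.14 at ZT16, against 0.17 and 0.14 over all such genes. The exception was Retnla, a secreted protein of alternatively activated macrophages, at 5710.4 and 4880.1 CPM in the members against 17639 and 17174 CPM. Retnla was lower in the members of both libraries, and its UMIs sat in a minority of them. A Retnla UMI was present in 39.6% and 36.6% of members, while the highest cells had 1732 and 1449 UMIs. Gas6, a bridge between dying cells and their receptors, was at 722 and 756 CPM in the members against 239.9 and 131 CPM. Ltc4s, which makes leukotriene C4, was at 387 and 542 CPM in the members against 87.9 and 44.4 CPM.

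Complement genes were divided. Of 16 with at least 50 UMIs, 5 were higher and 1 lower. C4b, a component of the classical pathway, was at 132 and 169 CPM in the members against 22.0 and 13.3 CPM. Cfb, a component of the alternative pathway, was at 25.2 and 37.2 CPM in the members against 2.75 and 5.18 CPM. Both were higher in the members of both libraries. The C1q genes, used by the rule in both sets, differed by log2 values between -0.03 and 0.94.

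Iron and lipid genes gave opposite pictures. Of 14 iron and haem genes other than Cd163, 7 were higher and none lower. Tfrc, the transferrin receptor, was at 198 and 115 CPM in the members against 53.6 and 20.7 CPM. Slc40a1, the iron exporter ferroportin, was at 101 and 70.6 CPM in the members against 42.1 and 6.66 CPM. Of 20 lipid genes, 3 were higher and 7 lower. Lgals3, galectin 3, was at 220.3 and 262 CPM in the members against 732 and 1077 CPM. Abcg1, a cholesterol exporter, was at 4.39 and 22.9 CPM in the members against 20.1 and 65.9 CPM, lower in the members at both times. Cd36, a scavenger receptor for lipids, was at 971 and 451 CPM in the members against 418 and 188 CPM, higher in the members at both times.

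Genes several times lower in the members than in the other C1q barcodes included Fn1, Lyz1, Mmp12 and Ear2. Of the 7 genes of the monocyte list only 3 had at least 50 UMIs, and 1 of them was lower in both libraries. Fn1, fibronectin, was at 94.4 and 122 CPM in the members against 1068 and 1378 CPM. Lyz1 was at 186 and 208 CPM in the members against 1662 and 1459.8 CPM, but it is a close copy of Lyz2 and reads of the 2 may be shared. Mmp12, macrophage elastase, was at 2.53 and 1.65 CPM in the members against 60.4 and 37.0 CPM. Ear2, a ribonuclease of patrolling monocytes and eosinophils, was at 29.4 and 29.1 CPM in the members against 299 and 462 CPM. Each of the 4 was several times lower in the members of both libraries. Ccr2 was at 278 and 255 CPM in the members against 893 and 1148 CPM. Of 12 genes of MHC class II and its co-stimulators, 6 were lower and none higher, led by the class II chains and their loading genes. H2-Aa was at 4675 and 3601 CPM in the members against 8312 and 7574 CPM. Of 16 cell cycle genes, 8 were lower. By at least 3 UMIs of G2/M genes, 3 of 798 and 11 of 599 members were in cycle, against 4 of 311 and 9 of 176 other barcodes. Thinned to 2000 UMIs, 2 of 772 and 4 of 571 members were, against 2 of 256 and 7 of 142.

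**Figure D1:**
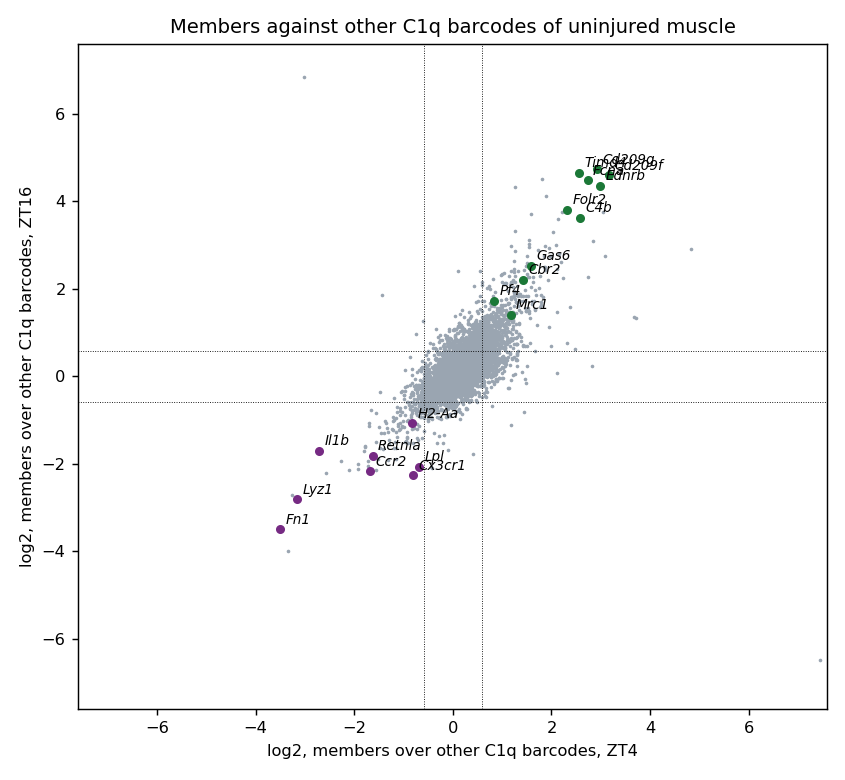
Log2 ratio of summed CPM in the members over the other C1q barcodes at ZT4 (x axis) and ZT16 (y axis), 1 point a gene, for 6145 genes with at least 200 UMIs in the members, without Lyve1 and Cd163. Dotted lines mark 1.5-fold. Green names (resident macrophage and complement genes) lie at the upper right in both libraries and purple names (monocyte, lipid and MHC class II genes) at the lower left.

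Between the 2 times of day most genes of the members lay within 1.5-fold. Genes of the circadian clock, several of the glucocorticoid, lipid and chemokine lists, and Lyve1 lay outside it. Of 6147 genes with at least 200 UMIs, 183 (2.98%) were at least 1.5-fold higher at ZT16 and 211 (3.43%) at least 1.5-fold lower. The 95% counting limits lay wholly beyond 1.5-fold for 59 higher and 92 lower genes. Of these, 48 and 70 were spread over many cells, meaning a UMI in at least 10% of members and under 50% of UMIs in the 10 cells with most. Both limits were taken only in the library where the gene was higher. The median gene differed by 0.04 on the log2 scale. Gene lists below use genes with at least 50 UMIs, of which 5.02% were higher and 5.84% lower.

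The clock lists had medians of 1.49 for 7 repressors, 1.31 for 6 outputs and -0.58 for 3 activators, against 0.02 over all genes. In the clock, ARNTL (BMAL1) and CLOCK switch on the Per and Cry genes, whose proteins then restrain them, and DBP, TEF and other factors carry the rhythm to further genes. Arntl had 42.4 CPM in the ZT4 library and 3.92 in the ZT16 library, with UMIs in 24.7% and 2.84% of members, and was far lower at ZT16. Its log2 difference, ZT16 over ZT4, was -3.40 (95% limits -4.19 and -2.76). Clock, its partner, had 41.6 and 47.3 CPM and differed little. Per2 had 1.69 CPM in the ZT4 library and 49.7 in the ZT16 library, with UMIs in 10 of 798 and 172 of 599 members. A Per2 UMI was also present in 42.0% of stromal and 12.4% of endothelial barcodes at ZT16, and in 2.01% and 0.893% at ZT4, and the part of their free RNA in the members' value was not tested. Per2 in the members was higher at ZT16, with a log2 difference of 4.81 (95% limits 3.98 and 5.96). In the other C1q barcodes Arntl differed by -2.02 and Per2 by 1.51, and whether the members differ from them in this was not tested.

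Of the 7 clock repressor genes, 6 were at least 1.5-fold higher at ZT16 and none lower. Per1 had 32.1 and 85.9 CPM, Per3 16.9 and 49.7 CPM and Cry1 1.35 and 19.8 CPM at ZT4 and ZT16. Nr1d2, which encodes the repressor REV-ERB beta, had 31.9 and 72.7 CPM. Nr1d1, which encodes REV-ERB alpha, was the exception with 31.1 and 34.7 CPM, a log2 difference of 0.16 (95% limits -0.15 and 0.47). Of 6 clock output genes, 5 were higher. Dbp had 39.5 and 157 CPM and was detected in 20.7% and 57.4% of members. Tef had 21.5 and 93.7 CPM. The output gene Nfil3, a repressor that competes with DBP, had 9.29 and 7.43 CPM and did not pass 1.5-fold.

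Promoters are shown for the clock genes Per3 and Tef and for Fkbp5, a gene of the glucocorticoid list, because these were higher at ZT16 and their windows hold a clock word, with RefSeq GRCm38.p6 windows of 250 bases that hold no annotated exon. Capitals mark the E-box CACGTG, to which ARNTL and CLOCK bind, and the D-box TTATGTAA, to which DBP and TEF bind. Per3 (gene chr4:151003652-151044665, minus strand, window chr4:151044666-151044915) held D-boxes at positions -205 and -158. The second annotated start of Tef (gene chr15:81802421-81826863, plus strand, window chr15:81811164-81811413) held an E-box at -138. Fkbp5 (gene chr17:28399094-28517527, minus strand, window chr17:28486150-28486399), which encodes a chaperone of the glucocorticoid receptor, held an E-box at -169. This window lies before a RefSeq start within the gene's GENCODE span.
Per3: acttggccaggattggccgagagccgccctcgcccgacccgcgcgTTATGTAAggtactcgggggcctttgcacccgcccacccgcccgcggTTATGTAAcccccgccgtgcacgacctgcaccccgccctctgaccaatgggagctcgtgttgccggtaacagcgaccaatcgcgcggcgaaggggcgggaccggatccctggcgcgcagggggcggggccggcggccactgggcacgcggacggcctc
Tef: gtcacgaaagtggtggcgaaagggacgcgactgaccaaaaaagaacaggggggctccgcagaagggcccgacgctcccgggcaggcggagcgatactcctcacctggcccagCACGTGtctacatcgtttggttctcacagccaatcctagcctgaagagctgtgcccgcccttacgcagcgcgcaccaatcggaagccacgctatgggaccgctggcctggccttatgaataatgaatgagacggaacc
Fkbp5: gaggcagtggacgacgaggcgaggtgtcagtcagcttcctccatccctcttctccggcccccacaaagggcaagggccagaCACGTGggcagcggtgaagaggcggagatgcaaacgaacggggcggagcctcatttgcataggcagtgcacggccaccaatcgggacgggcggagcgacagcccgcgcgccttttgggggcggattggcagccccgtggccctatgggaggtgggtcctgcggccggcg
The E-box, which reads the same on both strands, stood in 6.02% of the 32851 windows, and the D-box on either strand in 0.819%. They were chosen for holding a word and for no exon bases. Of 15 windows of 12 clock genes looked up, 6 held the E-box and 1 the D-box, and 8 neither, among them those of Dbp, Nr1d1, Nr1d2, Cry2 and Usp2. Of 5 windows of Fkbp5, Tsc22d3 and Klf9, 1 held the E-box.

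Several genes that glucocorticoids are known to induce were higher at ZT16. Fkbp5 had 3.89 CPM in the ZT4 library and 42.3 in the ZT16 library, a log2 difference of 3.42 (95% limits 2.82 and 4.13). Thinned to 2000 UMIs a cell, it differed by 2.06. Tsc22d3, which encodes the glucocorticoid-induced protein GILZ, had 197 CPM in the ZT4 library and 499 in the ZT16 library and was detected in 65.8% and 89.5% of members. Klf9, a glucocorticoid- and clock-responsive factor, had 92.4 and 174 CPM. These 3 were the only genes past 1.5-fold among 15 of the list, and none was lower. The list's median log2 difference was 0.23, against 0.02 over all genes with at least 50 UMIs. Dusp1 had 1940.3 and 2398 CPM and Nr3c1, the receptor itself, 249.8 and 259 CPM, both within 1.5-fold.

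Lyve1 itself was higher at ZT16, although the rule asked for it. It lies at chr7:110850607-110863239 on the minus strand of GRCm38. Its level was 569 CPM in the ZT4 library and 1656 in the ZT16 library, with a median of 3 UMIs a member at ZT4 and 9 at ZT16. The log2 difference was 1.54 (95% limits 1.48 and 1.60). Cd163 (chr6:124304656-124330527, plus strand) had 744 and 1022 CPM, a smaller difference of 0.46 (95% limits 0.40 and 0.52). The rule used these 2 genes, so their values are a description, and a higher level of 1 of them admits more cells. With cells chosen by at least 2 UMIs of Cd163 alone, Lyve1 was 2.84-fold higher, and with cells chosen by at least 2 UMIs of Folr2, 3.19-fold, against 2.91-fold under the rule. Timd4 and Folr2 did not differ beyond 1.5-fold, with 165 and 159 CPM for Timd4 and 1349.8 and 1272 CPM for Folr2. In the other C1q barcodes, limited to at most 1 UMI of the 2 genes, Timd4 and Folr2 were lower at ZT16, by log2 values of -2.16 and -1.58, from 61 and 8 UMIs of Timd4. Whether the 2 sets of cells differ in this was not tested.

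Of 19 lipid genes, 2 were higher and 5 lower at ZT16, with a median of -0.02. Lpl, lipoprotein lipase, had 581 CPM in the ZT4 library and 125 in the ZT16 library and was detected in 75.2% and 19.9% of members. Its log2 difference was -2.22 (95% limits -2.34 and -2.09). Cd36 had 971 CPM in the ZT4 library and 451 in the ZT16 library, in 95% and 84.0% of members, a difference of -1.11 (95% limits -1.18 and -1.03). Over the other ways of choosing, thinning and scaling the cells that were run, the difference lay between -3.65 and -2.09 for Lpl and between -1.16 and -1.02 for Cd36, below 0 in each. In the other C1q barcodes Lpl differed by -0.84 and Cd36 by -1.15, and whether the members differ from them in this was not tested. Fabp4, a fatty acid carrier, had 108 and 40.5 CPM, but its difference of -1.41 was -0.71 without members rich in RNA of other cells. These were members above the 90th percentile of their library for the stromal, endothelial, fibre or dendritic list, and 574 and 456 members were left. Plin2, a lipid droplet coat protein, had 134 and 76.6 CPM. In the other direction, Abcg1 had 4.39 and 22.9 CPM, a difference of 2.36 that lay between 2.18 and 2.99 in the alternatives, and Trem2, a lipid-sensing receptor, 116 and 207 CPM. Apoe and Npc2, a lysosomal cholesterol carrier, stayed within 1.5-fold, with 724 and 677 CPM for Npc2. The summed level of 8 blood endothelial genes, cells that also carry Cd36, was 65.9 and 33.9 CPM in the members. Its part in the result was not tested, while without the members richest in RNA of other cells Cd36 differed by -1.16 and Lpl by -2.09.

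**Figure D2:**
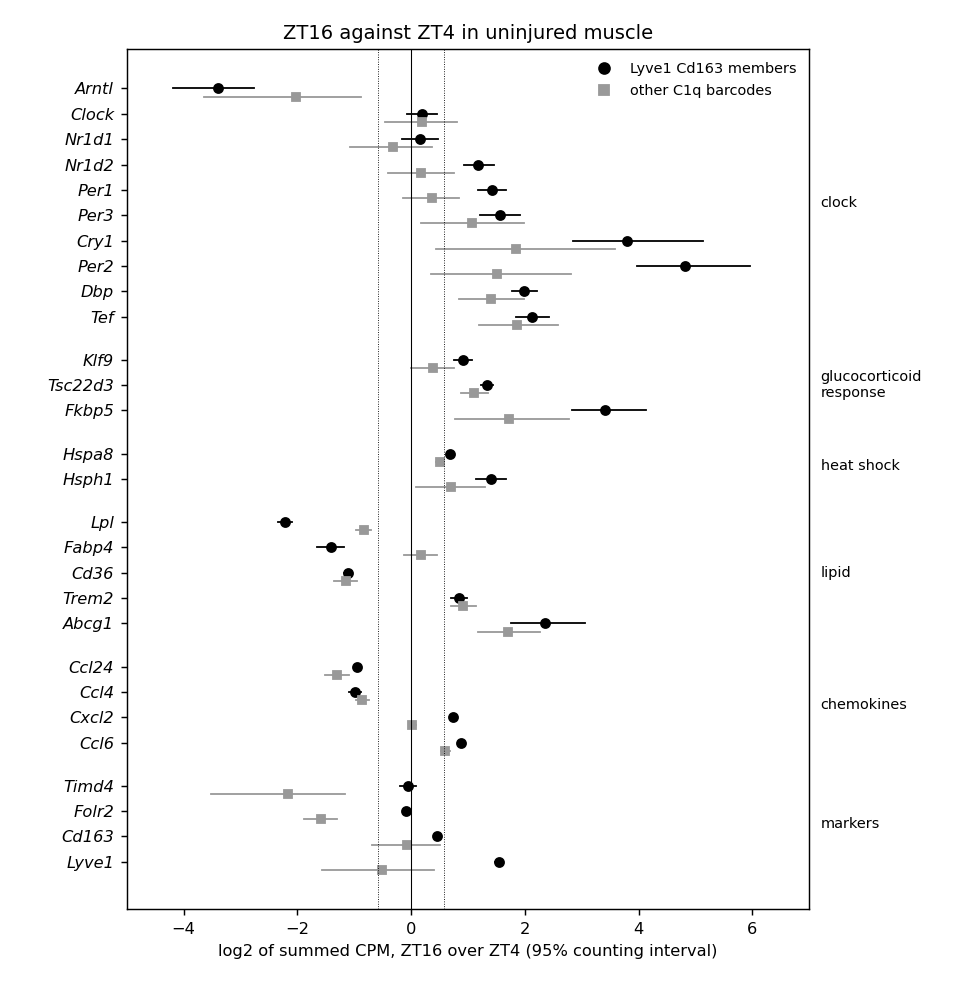
Log2 of summed CPM at ZT16 over ZT4 for named genes, in the members (black circles) and the other C1q barcodes (grey squares) of uninjured muscle. Lines are 95% counting limits and dotted lines mark 1.5-fold. Arntl and Lpl lie to the left, and Per2, Cry1, Fkbp5 and Lyve1 to the right, of the dotted lines in the members.

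Chemokines were found in both directions. Ccl24, an eosinophil attractant made by resident macrophages, had 1129 CPM in the ZT4 library and 586 in the ZT16 library, detected in 91.0% and 78.8% of members, a log2 difference of -0.95 (95% limits -1.01 and -0.88). Ccl4, an inflammatory chemokine, had 388 and 195 CPM and was carried by 12.3% and 12.2% of members, with 48.6% of its UMIs at ZT4 in 10 cells. Its difference of -0.99 was -0.55, within 1.5-fold, under the stricter rule and -1.94 where both Lyve1 and Cd163 were required. Ccl6 had 844 CPM in the ZT4 library and 1556 in the ZT16 library and was higher at ZT16. Cxcl2, a neutrophil attractant, had 849 and 1418 CPM, in 28.8% and 37.1% of members. In the other C1q barcodes Ccl24 differed by -1.30, Ccl4 by -0.86, Ccl6 by 0.60 and Cxcl2 by 0.02. Of 17 chemokine genes, 4 were higher and 2 lower, with a median of 0.05. The monocyte attractant Ccl2 had 981 and 1068 CPM, within 1.5-fold. Among 7 chemokine receptors 3 were lower and none higher, among them Ccr1 with 101 and 65.2 CPM and Cx3cr1, the fractalkine receptor, with 106 and 47.3 CPM. The difference of Cx3cr1, -1.17, was -2.26 where both Lyve1 and Cd163 were required.

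Other secreted factors included Il1b, an inflammatory cytokine, with 71.3 CPM in the ZT4 library and 197 in the ZT16 library, and Il10, an anti-inflammatory cytokine, with 19.9 and 4.75 CPM. Il1b was higher and Il10 lower at ZT16, but only 118 and 23 UMIs stood behind Il10. The difference of Il1b, 1.47, was 2.09 with cells chosen by Folr2. Il1b was not among the 48 higher genes that were spread over many cells by the measure given above. It was thus in under 10% of the ZT16 members or had at least 50% of its ZT16 UMIs in 10 cells. Igf1, a growth factor for muscle, had 509 and 353 CPM, a difference of -0.53 that did not reach 1.5-fold. Gas6 had 722 and 756 CPM. Mmp9, gelatinase B, had 268 CPM in the ZT4 library and 68.3 in the ZT16 library, in 44.2% and 22.0% of members, and was lower at ZT16. Pla2g2d, a secreted phospholipase of resolving macrophages, had 233 and 77.8 CPM. Hpgd, which degrades prostaglandins, had 708 and 312 CPM, and Hpgds, which makes prostaglandin D2, 174 and 99.7 CPM. All of these enzymes were lower at ZT16. In the other C1q barcodes Mmp9 differed by -2.88, Pla2g2d by -3.01, Hpgd by -1.14 and Hpgds by -0.54. The lower levels were thus not particular to the members.

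Of 26 resident macrophage genes 3 were higher and 3 lower at ZT16, with a median of -0.07. Of 15 scavenger receptor genes none was higher and 3 were lower, namely Cd36, Scarb1 and Dab2, with a median of -0.09. Mrc1 had 2169 and 1854 CPM and Cbr2, a carbonyl reductase, 745 and 1075 CPM. Dab2, an adaptor for uptake by endocytosis, had 1627 CPM in the ZT4 library and 1021 in the ZT16 library and was lower at ZT16. Wwp1, a ubiquitin ligase, had 679 and 418 CPM. Ninj1, a membrane protein of cell rupture, had 362 and 572 CPM and was higher. Of 15 iron and haem genes, Steap4 was higher, and Tfrc (198 and 115 CPM) and the ferroxidase gene Cp (74.3 and 46.0 CPM) lower. Of 12 MHC class II and co-stimulator genes, only Cd40, the receptor for CD40 ligand, was past 1.5-fold, with 63.9 and 18.8 CPM. H2-Aa had 4675 and 3601 CPM, a difference of -0.38.

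Of 13 heat shock genes, 3 were higher at ZT16 and none lower, with a median of 0.44. Hsph1 had 30.9 and 81.7 CPM and Hspa8, a constitutive chaperone, 1782 and 2852 CPM. The cold-inducible gene Cirbp had 108 CPM in the ZT4 library and 35.5 in the ZT16 library and was lower at ZT16, with a log2 difference of -1.61 (95% limits -1.86 and -1.37). Rbm3, another cold-inducible gene, had 334 and 283 CPM, within 1.5-fold. Of 24 immediate early genes 1 was higher and 1 lower, with a median of -0.01. Of 17 interferon genes 1 was higher and 2 lower. Of the 10 cell cycle genes 6 were higher, beside the 3 and 11 members in cycle given above, or 2 and 4 after thinning.

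**Figure D3:**
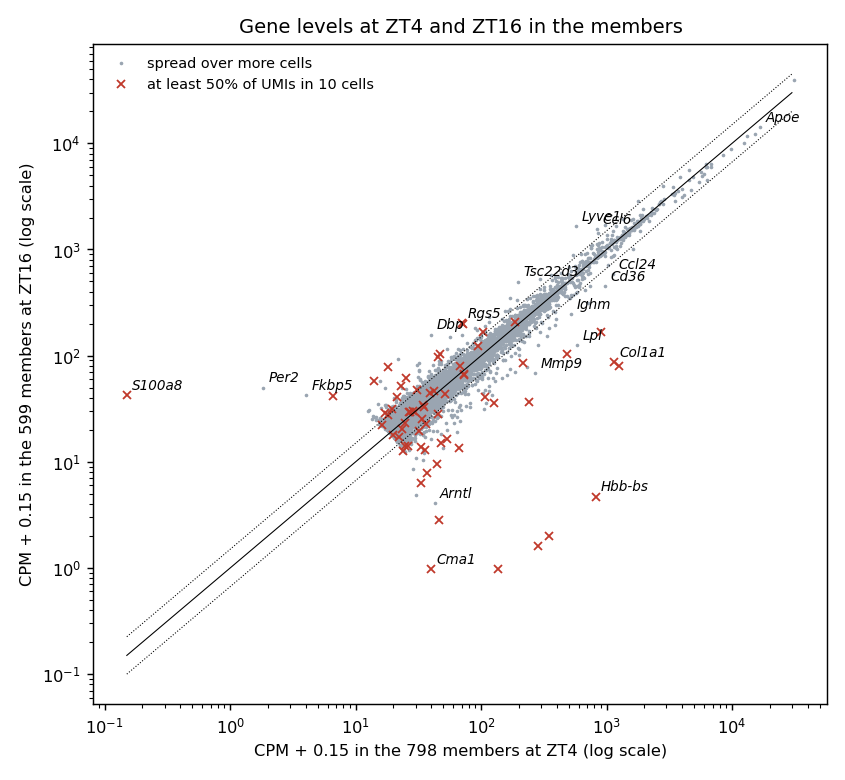
Level of each of the 6147 genes with at least 200 UMIs in the members at ZT4 (x axis) and ZT16 (y axis), in CPM with 0.15 added, on log axes. Dotted lines mark 1.5-fold, and red crosses are genes with at least 50% of their UMIs in 10 cells of the library where they were higher. Per2, Fkbp5 and Lyve1 lie above the band and Arntl, Lpl and Cd36 below it, while S100a8, Hbb-bs, Cma1 and Col1a1 lie far off the band as red crosses.

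Several of the largest differences came from a handful of cells and belong to other cell types. All 205 UMIs of S100a8, a neutrophil gene, came from 1 cell at ZT16, against 0 at ZT4, at least 83.5-fold higher on the floor of 3 UMIs. With doublets left out, no S100a8 UMI was left in either library, and its value of 0.30 reflects only the prior of 0.5 UMIs and the summed UMIs. Cma1 then differed by -1.28, with at most 4 UMIs at ZT16. Col1a1, collagen I, had 1146 and 86.9 CPM, with 97.8% of its UMIs at ZT4 in 10 cells. Its difference of -3.72 was -0.90 when members rich in stromal, endothelial, fibre or dendritic RNA were left out. Red cell, mast cell, neutrophil and pericyte genes were not used for leaving out members. The red cell gene Hbb-bs had 818 and 4.54 CPM, with 98.4% in 10 cells at ZT4. Cma1, a mast cell protease, had 40.0 and 0.826 CPM, with 99.6% in 10 cells at ZT4. Rgs5, a pericyte gene, had 70.3 and 203 CPM, and its difference of 1.53 was -0.082 without those members. Genes with at least 50% of UMIs in 10 cells, in the library where they were higher, were 16 of the 183 higher and 28 of the 211 lower genes.

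RNA of other cell types was measured in the members as a whole. The 10 stromal genes summed to 2974 CPM at ZT4 and 341 CPM at ZT16, with 94.1% and 65.1% of it in 10 cells. Mature muscle fibre genes summed to 5022 and 6219 CPM and reached 5 UMIs in 91.7% and 93.7% of members. The same genes summed to 3932 and 5649 CPM in stromal and to 8594 and 10385 CPM in endothelial barcodes. Scores for doublets (droplets with more than 1 cell) marked 56 members (7.02%) and 50 members (8.35%), against 9.41% and 9.91% of all kept barcodes. These members were kept. The part of other cells' RNA in the differences between times was not tested beyond the values given without those members.

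Members with and without a Timd4 UMI were compared within each library, after thinning to 2000 UMIs so that deeper cells were not simply more often positive. At ZT4 197 of 772 thinned members had a Timd4 UMI, and at ZT16 144 of 571. Since a cell of low level can miss its UMI, the group without it can hold cells that carry the gene. Of 3894 genes with at least 100 thinned UMIs, 48 (1.23%) were at least 1.5-fold higher in both libraries with Timd4 and 52 (1.34%) lower, and 34 and 69 when centred on the median gene. The members were split on 1 of their own genes, so these values are a description.

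Of 23 other resident macrophage genes with at least 100 thinned UMIs, 7 were at least 1.5-fold higher in cells with Timd4 in both libraries and none lower. Of 14 chemokine genes 5 were lower and none higher, and of 11 MHC class II genes 4 were lower and none higher. Ednrb had 678 against 354 CPM at ZT4 and 635 against 331 CPM at ZT16, with and without Timd4. The resident gene Mrc1 differed little, by log2 values of 0.20 and 0.21. Fcna had 378 against 203 CPM at ZT4 and 535 against 212 CPM at ZT16. Ltc4s had 584 against 346 CPM at ZT4 and 829.9 against 464 CPM at ZT16. Among genes lower with Timd4, Ccr2 had 81.2 against 317 CPM at ZT4 and 27.8 against 319 CPM at ZT16. A Ccr2 UMI was present in 6.60% against 18.8% of thinned members at ZT4 and in 3.47% against 24.6% at ZT16. Lyz1 had 12.7 against 152 CPM at ZT4 and 3.47 against 148 CPM at ZT16. Ccl4 had 68.5 against 466 CPM at ZT4 and 20.8 against 259 CPM at ZT16, and Cxcl2 269 against 924 CPM at ZT4 and 521 against 1590.2 CPM at ZT16. With cells chosen by Folr2, the ZT16 difference of Ccl4 was 0.70, the other way. Under the rule, the cells with Timd4 were lower in these genes in both libraries. Cd52, a surface glycoprotein of leukocytes, had 83.8 against 295 CPM at ZT4 and 59.0 against 395 CPM at ZT16.

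Members also ranged widely in MHC class II, the molecules that present antigen to T cells. The members of each library were ranked by their thinned UMIs of MHC class II genes and cut into 3 groups of near equal size, low, middle and high. The high group held 68 to 254 such UMIs at ZT4 and 51 to 286 at ZT16, and the low group at most 12 and 3. The cuts divide a range and not types, and 57 and 99 cells lay within 2 UMIs of a limit. Of 2716 genes, 48 (1.77%) were at least 1.5-fold higher in the high than in the low group in both libraries and 151 (5.56%) lower.

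Timd4 and Lyve1 were lower, and Ccr2 higher, with more MHC class II. Timd4 was detected in 34.2, 28.2 and 14.0% of the low, middle and high groups at ZT4 and in 39.8, 29.2 and 6.32% at ZT16. Lyve1 had 917, 555 and 263 CPM at ZT4 and 2531, 1878 and 658 CPM at ZT16. Cd163, the other gene of the rule, had 819, 861 and 753 CPM and 1005, 1070.3 and 916 CPM, nearly level across the groups. The rule asked for 2 UMIs of Lyve1 and Cd163 together, so members with little Lyve1 must carry Cd163. The levels of these 2 genes are thus a description. Folr2 had 1640.4, 1504 and 994 CPM and 1643, 1568 and 708 CPM, lowest in the high group. A Ccr2 UMI was present in 2.31, 12.5 and 32.3% at ZT4 and in 0, 14.1 and 44.2% at ZT16. Where no UMI was found among the 196 cells of the low group at ZT16, a floor of 3 cells stands for a share of 1.53%. The high group thus held most of the members with Ccr2 RNA.

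Among other genes, Ciita, the master activator of MHC class II, had 9.62 against 117 CPM at ZT4 and 2.55 against 168 CPM at ZT16 in the low and high groups. Clec4b1, a C-type lectin of dendritic cells and monocytes, had 40.4 against 226 CPM at ZT4 and 15.3 against 221 CPM at ZT16. Mpeg1, which encodes the pore protein perforin 2, had 63.5 against 274 CPM at ZT4 and 63.8 against 255 CPM at ZT16. These were higher with MHC class II. Ednrb had 683 against 148 CPM at ZT4 and 564 against 147 CPM at ZT16, and Fcna 413 against 95.3 CPM at ZT4 and 459 against 78.9 CPM at ZT16. C4b had 212 against 56.4 CPM at ZT4 and 311 against 73.7 CPM at ZT16. Ncoa4, the receptor for ferritin breakdown, had 185 against 60.3 CPM at ZT4 and 171 against 52.6 CPM at ZT16. These 4 were lower in the high group at both times. Col1a1, Col1a2 and Dcn, stromal genes, were lower in the high group as well. Of all Col1a1 UMIs of the ZT4 members, 97.8% lay in 10 cells, and the part of stromal RNA in this was not tested.

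**Figure D4:**
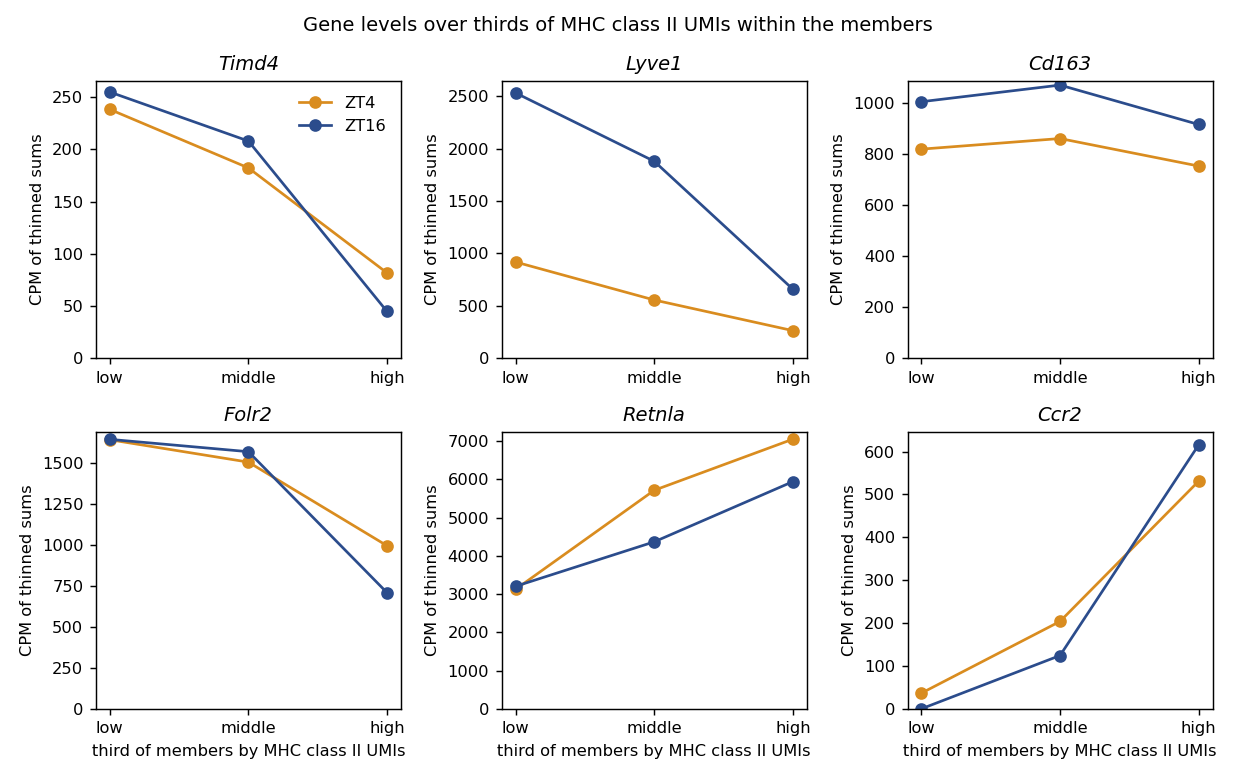
Level of 6 genes (CPM of UMIs summed after thinning to 2000 UMIs a cell) in the low, middle and high groups of members by MHC class II UMIs, at ZT4 (orange) and ZT16 (blue). Timd4, Lyve1 and Folr2 are lowest and Ccr2 and Retnla highest in the high group of both libraries, and Cd163 is nearly level. The rule itself used Lyve1 and Cd163 together.

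The make-up of the members by MHC class II differed between the times, so the ZT differences were also taken within ranges of equal limits. With limits at 7 and 62 UMIs over both libraries, the low, middle and high ranges held 222, 269 and 281 cells at ZT4 and 232, 174 and 165 at ZT16. Lyve1 differed by log2 values of 1.36, 1.60 and 0.96 in the 3 ranges. Lpl differed by -3.64, -2.95 and -2.27, Cd36 by -0.87, -1.22 and -1.44 and Ccl24 by -0.87, -1.17 and -1.27. Tsc22d3 differed by 1.39, 1.44 and 1.40. The direction of each of these was thus the same in every range. Timd4 differed by 0.00, 0.13 and -1.53, with 51 and 10 UMIs in the high range, and Folr2 by 0.05, -0.15 and -0.60. Cx3cr1 differed by -2.34, -0.29 and -0.33, largest in the low range.

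The same limits were applied to the libraries of injured muscle, where they found fewer cells, with less Timd4 and more Ccr2. They took 75 and 171 barcodes on day 1 at ZT4 and ZT16 (0.683% and 1.52% of kept barcodes) and 238 and 307 on day 3 (2.51% and 3.76%). The barcodes that met them were deeper, with medians from 11990 to 17525 UMIs, and after thinning to 2000 UMIs the shares were 0.136% and 0.210% on day 1 and 0.584% and 1.35% on day 3, against 5.27% and 4.77% on day 0. Of barcodes with C1q they were 5.43% and 7.6% on day 1 and 4.84% and 6.73% on day 3. Timd4, at 165 and 159 CPM on day 0, had 0 and 0.968 CPM on day 1 and 2.45 and 2.80 CPM on day 3. A Timd4 UMI was in 0 of 75 barcodes (with an exact upper limit of 4.80%) and 3 of 171 on day 1, and in 6 of 238 and 8 of 307 on day 3. Cd209f had 5.85 and 6.13 CPM on day 1 and 1.84 and 1.27 CPM on day 3. Both were near 0 after injury in all 4 libraries. Lyve1 had 34.1 and 37.1 CPM on day 1 and 113 and 284 CPM on day 3, and Folr2 259 and 233 CPM on day 1 and 609.9 and 653 CPM on day 3. These were below the day 0 levels in each injured library. Cd163 had 355 and 299 CPM on day 1 and 294 and 370.4 CPM on day 3. The limits asked for a fixed count of Lyve1 and Cd163 UMIs, so deeper barcodes could pass with fewer CPM of them. The values of these 2 genes after injury are thus a description. Ccr2, at 278 and 255 CPM on day 0, had 749 and 754 CPM on day 1 and 583 and 681 CPM on day 3, higher in each. The cells that met the limits after injury thus lacked most of the Timd4 RNA of the day 0 members.

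**Figure D5:**
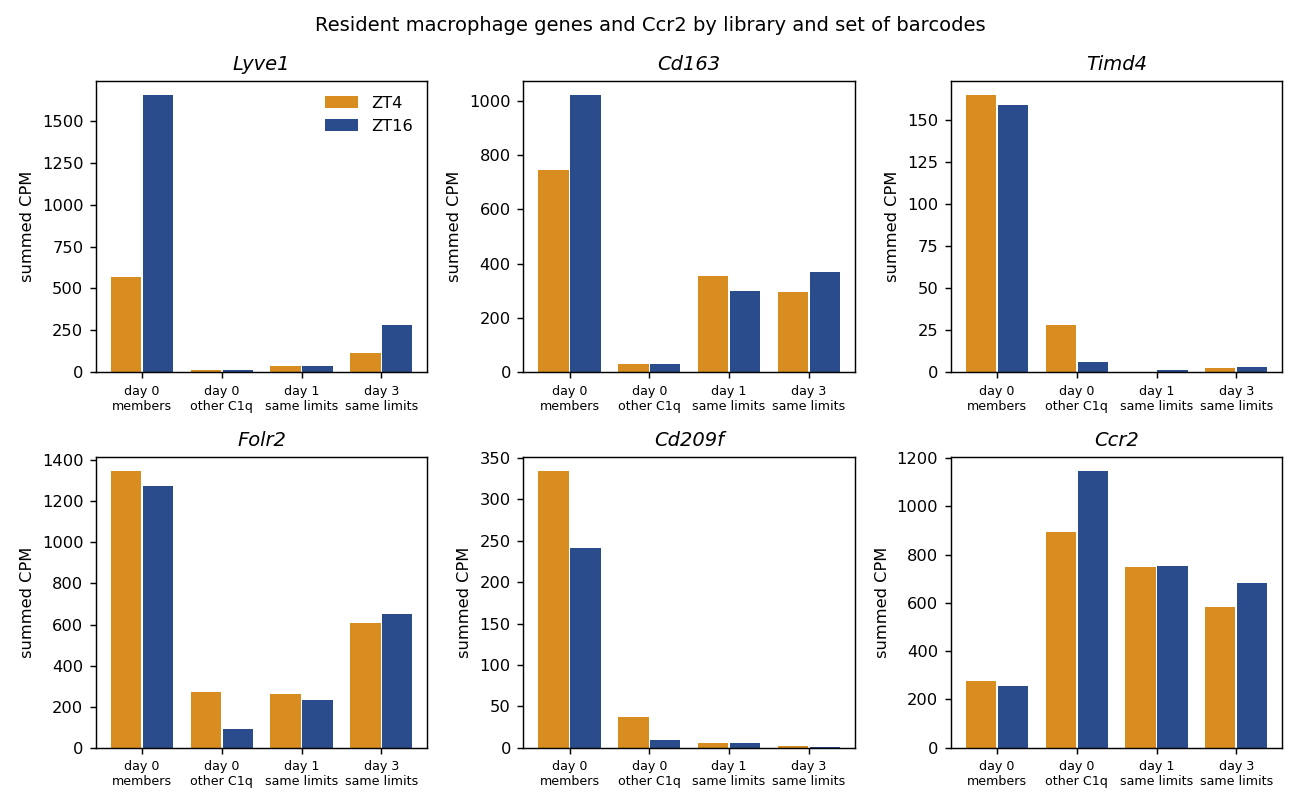
Summed CPM of 6 genes at ZT4 (orange) and ZT16 (blue) in the day 0 members, the other day 0 C1q barcodes and the barcodes that met the same limits on day 1 and day 3 after injury. Lyve1 is highest in the ZT16 members, Timd4 and Cd209f are near 0 after injury, and Ccr2 is higher in every other set than in the members. All sets were chosen by limits on Lyve1 and Cd163.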

How the data were processed

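Single cells from uninjured and cardiotoxin-injured mouse tibialis anterior muscle were measured in 6 libraries, 1 per group, at 76575993 to 132221721 UMIs each. The deposited files hold raw UMI counts per gene and cell barcode. Counting used Cell Ranger, version 6.1.2 per the file headers and 1.0.0 with genome mm10 per the submitters' processing notes, and the sources used here do not give the annotation release.

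The members and the gene lists were chosen with earlier results of these data known. Counts were summed over the members of a library, scaled to CPM, and compared as log2 ratios with a prior of 0.5 UMIs and exact conditional binomial 95% limits. Shares have exact binomial (Clopper-Pearson) limits. PCR copies are removed by the UMIs, and the limits cover counting error only. Genes counted at 0 are set against a floor of 3 UMIs. A gene was called higher or lower past 1.5-fold, without a test, among genes with at least 200 UMIs (50 for lists, 100 for the thinned Timd4 and MHC class II comparisons). The genes named were the examples of each list by level or fold with at least 50 UMIs, up to 12 a direction by fold for each comparison, and the 20 with most UMIs. Mitochondrial, ribosomal, predicted (Gm, Rik) and replication-dependent histone genes were left out. Genes spread over many cells were added after the values were seen. Stromal barcodes had at least 2 Pdgfra UMIs, and endothelial barcodes at least 3 Pecam1 UMIs and a UMI of Cdh5. Barcodes with any Ptprc UMI were left out of both, which also leaves out droplets with leukocyte RNA that hold Ptprc. Doublets were scored with Scrublet in scanpy 1.11.5 at 0.8% per 1000 barcodes and kept. Gene coordinates are GENCODE vM21. Python 3.11.15, numpy 2.4.6, scipy 1.17.1, pandas 2.3.3 and matplotlib 3.10.9 were used, and the calculations were tested on simulated data. Alternatives changed doublets, the rule, RNA of other cells, the mitochondrial limit, depth, scaling, weighting and the count minimum. Results for a few genes are not reported here.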

Additional observations from a re-analysis of the deposited data

How the results depend on the processing

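No paired analysis was possible because each group was 1 library. Over all settings, 57 of 102 main results and 1277 of 1904 single-gene values stayed within the range set for them, and 8 single-gene values changed direction. The cause of the movements was not tested, except that fewer genes pass a minimum on fewer UMIs. With doublets left out, 30 genes were higher with Timd4, and Axl at ZT4 in that comparison was 0.22. With the stricter rule (C1q sum at least 10, Lyve1 and Cd163 at least 4), the log2 share was -0.31, Timd4 was detected in 60.5% and 53.7%, and 28 genes were higher and 29 lower with Timd4. With both genes required, Timd4 was detected in 63.4% and 61.4%, 327 genes were higher than in the other C1q barcodes, and 24 were higher and 33 lower with Timd4. Without members rich in RNA of other cells, the ZT16 over ZT4 differences were -0.082 for Rgs5, 1.74 for Ecrg4 and 0.36 for Sparc. The counting limits were -0.46 and 0.29 for Rgs5 and 0.038 and 0.69 for Sparc. For Ecrg4 the lower limit was -5.13 and there was no upper limit. The directions of Rgs5 and Ecrg4 in this setting were thus not settled. Thinned to 2000 UMIs, the log2 share was -0.15, Timd4 was detected in 25.5% and 25.2%, 59 genes were higher and 81 lower at ZT16 of 2056, and 227 were higher and 69 lower than in the other C1q barcodes of 2609. Thinned shares by the same limits were 5.27% on day 0 at ZT4, 0.136% and 0.210% on day 1, and 0.584% and 1.35% on day 3. Not thinned, 127 genes were higher and 125 lower with Timd4. Centred on the median gene, 440 genes were higher and 354 lower than in the other C1q barcodes. With a minimum of 50 UMIs, the counts higher and lower were 491 and 571 for ZT16, 1072 and 410 for the other C1q barcodes, and 123 and 116 for Timd4. With a minimum of 500 UMIs they were 84 and 94, 417 and 104, and 7 and 13. In settings added after seeing the data, Cd163 alone as the limit gave 148 genes higher and 100 lower than in the other C1q barcodes and 0.30 for Cxcl1 with Timd4 at ZT16. Folr2 as the limit gave a log2 share of -0.65, Timd4 in 55.3% at ZT16, 15 genes higher and 31 lower with Timd4, and in that comparison -0.58 for Gimap6 and 0.70 for Ccl4 at ZT16 and 0.095 for Fn1 at ZT4. A gene of the members at 0 UMIs could be as high as 0.507 CPM at ZT4 and 0.619 CPM at ZT16 by the floor of 3 UMIs.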

Other observations

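Ighm, which encodes the immunoglobulin M heavy chain of B cells, was singled out after its values were seen. An Ighm UMI was present in 89.8% of members at ZT4 (exact binomial 95% limits 87.5% and 91.9%) and 74.1% at ZT16 (70.4% and 77.6%), at 521 and 245 CPM with medians of 3 and 1 UMIs a cell. The members were thus above the other sets named below in both libraries. The other C1q barcodes had it in 72.7% and 56.8%, and barcodes chosen by dendritic cell genes in 54.5% and 53.6%. Stromal barcodes, which were deeper, had it in 9.42% and 6.27%, and endothelial barcodes in 2.31% and 1.29%. The B cell genes were divided in the members. Ms4a1 had 0 UMIs in both libraries, Cd79a had 1 and 2, and the light chain gene Igkc had 6 and 0. Cd79b and Ighd were not near 0. Cd79b had 76 and 84 UMIs (12.8 and 17.3 CPM) at ZT4 and ZT16, and Ighd had 62 and 19 UMIs. Cd79b was at 12.4 and 19.2 CPM in the other C1q barcodes and at 0.135 and 0.0717 CPM in stromal barcodes. Reads at the 3′ end do not show which transcript of the locus they came from, and the source of the Ighm RNA was not tested.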
